A study of Mus musculus with 7 samples.

Results

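Vim, Des, Nes, Gfap and Prph encode vimentin, desmin, nestin, glial fibrillary acidic protein and peripherin, the intermediate filament proteins that mark mesenchymal, muscle, progenitor and neural cells. They are 5 of the 18193 genes measured on the arrays, and all 15 probe sets annotated to them, of 45101 on the array, were taken, with 3 for Vim, 2 for Des, 3 for Nes, 3 for Gfap and 4 for Prph. No probe set with several gene symbols names any of them. The genes were chosen with their values on these arrays known, so their levels and differences are given as a description with no p-value.

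RNA was measured on Affymetrix Mouse 430 2.0 arrays, which read a gene by 1 or more sets of short probes, in 3 groups of mouse cells of the strain C57BL/6 (C57BL/6J in the study's methods). The MEF group is 4 arrays of mouse embryonic fibroblasts, which received no virus and grew in a DMEM medium with serum. The iHepSC group is 2 arrays of induced hepatic stem cells, made from MEF with lentivirus that carried Oct4 and Hnf4α behind an SFFV promoter and expanded in a hepatocyte (HEP) medium from mechanically picked colonies, with replicate 1 at passage 3 (P3) and replicate 2 at passage 20 (P20). The pHep group is 1 array of primary hepatocytes, which were isolated from 6-week-old mice by collagenase perfusion and then plated, in HEP medium by the labels and in Williams' medium E for a few hours before RNA was taken by the study's methods. The study took its clone iHepSC-C3 for detailed work, and neither the labels nor the array methods name the clone on these arrays. The number of mice behind the pHep array is not given in the sources used here. Transgenes, medium and cell identity differ together between MEF and iHepSCs, and their parts cannot be told apart. The replicates are not said to be separate cultures, so p-values measure only the spread between these arrays, which may be technical.

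Intermediate filaments are rope-like polymers of the cytoskeleton, and which ones a cell builds is a classical sign of its lineage. Vimentin, desmin, GFAP and peripherin form the type III class and can assemble by themselves. Vimentin is the main filament protein of fibroblasts, endothelial cells, macrophages and other cells of mesenchymal origin, desmin of muscle, GFAP of astrocytes and peripherin of peripheral neurons, while nestin belongs with the neurofilaments and assembles together with vimentin or desmin in progenitor cells. Epithelial cells build keratin filaments instead, and hepatocytes depend on the pair of keratins 8 and 18. In the liver, desmin, GFAP and nestin are known from hepatic stellate cells, and vimentin from the non-parenchymal cells and from many epithelial cells placed in culture.

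The sequence just before the transcription start is shown for Vim, Des and Nes, the 3 members whose brightest probe set lay below all MEF arrays on both iHepSC arrays. What controls these genes was not tested. The 100 bases before the start were taken from the RefSeq promoter table of build GRCm38.p6, at chr2:13574211-13574310 for Vim, chr1:75360192-75360291 for Des and chr3:87970993-87971092 for Nes, all on the plus strand, 5′ to 3′. Capitals mark matches on either strand to TATAAA (the TATA box), CCAAT (the CCAAT box) and GGGCGG (the GC box), and none of the matches overlap.
Vim promoter: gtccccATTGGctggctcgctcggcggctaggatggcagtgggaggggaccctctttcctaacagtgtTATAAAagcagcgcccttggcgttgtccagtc
Des promoter: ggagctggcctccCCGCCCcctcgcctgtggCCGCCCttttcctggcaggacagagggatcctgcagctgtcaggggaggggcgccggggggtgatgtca
Nes promoter: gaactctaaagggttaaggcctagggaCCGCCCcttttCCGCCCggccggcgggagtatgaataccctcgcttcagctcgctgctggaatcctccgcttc
Vim held a TATAAA 32 to 27 bases before the start and a CCAAT on the opposite strand 94 to 90 bases before it. Des and Nes each held 2 GGGCGG on the opposite strand and neither of the other motifs. In the same window Prph held a TATAAA at 31 to 26 bases and a GGGCGG, and Gfap held none of the 3. Of 32851 mouse promoters read over the same length, 5.56% held TATAAA, 18.9% CCAAT and 24.7% GGGCGG on either strand. These matches describe the letters only.

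The deposited values are log2 levels on which all 7 arrays had medians of 6.28 to 6.33 and highest values of 14.97 to 15.17. MEF replicate 1 stood apart, with Pearson's r of 0.960 to 0.961 to the other MEF arrays, which had 0.997 among themselves, so results that rest on replicate 1 are named. The fibroblast markers, 15 genes of collagens, matrix proteins and mesenchymal receptors, had mean log2 levels of 11.65 to 12.30 on the MEF arrays, 5.67 to 5.70 on the iHepSC arrays and 7.31 on pHep. The mean of 10 hepatocyte markers was 5.66 to 5.83 in MEF, 9.19 to 9.27 in iHepSCs and 12.33 on pHep. The list was split in iHepSCs, where 6 of the 10 rose against MEF by limma, beside 18.2% of all genes. The other 4 did not pass the test. Of these, Serpina1b was at 4.91 and 4.99 in iHepSCs and at 14.65 on pHep. Albumin (Alb), which defines hepatocytes, was at 5.35 to 5.89, 13.74 to 14.39 and 15.13.

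Vim read near the top of the scale on every array and was lower in iHepSCs than in MEF on all 3 of its probe sets on the deposited scale, though not once the arrays were centred on Gapdh (described after the values). Its brightest probe set, 1450641_at, had log2 levels of 14.62, 14.64, 14.58 and 14.56 in MEF, 14.20 at P3, 13.97 at P20 and 13.19 on pHep. The MEF arrays had a mean of 14.60 with an SD of 0.036 (n = 4), both iHepSC arrays lay below all of them, and pHep lay lowest. The log2 difference between iHepSCs and MEF was -0.52 ± 0.10 (SE, 2 and 4 arrays), so that iHepSCs held 69.9% of the MEF level. The probe set 1456292_a_at was at 14.02, 14.01, 14.07 and 14.15 in MEF, 13.61 at P3, 13.48 at P20 and 12.83 on pHep, a difference of -0.52 ± 0.094. The probe set 1438118_x_at was at 14.19, 14.26, 14.35 and 14.37 in MEF, 13.90 and 13.81 in iHepSCs and 13.49 on pHep, a difference of -0.44 ± 0.097. These last 2 probe sets were designed from the same transcript record and are not independent readings. Over the 7 arrays the 3 Vim probe sets moved together, with Pearson's r of 0.951 to 0.986 between them.

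**Figure D1:**
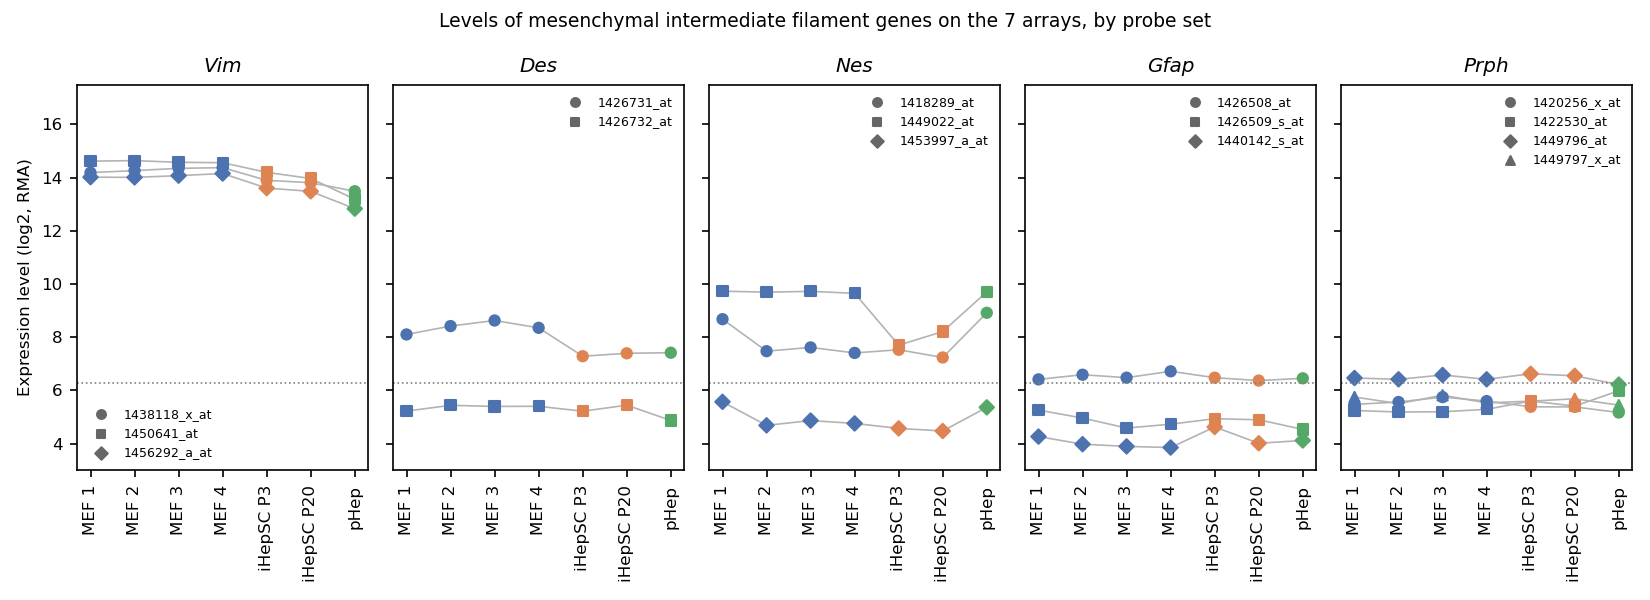
Log2 expression level (RMA, vertical axis) of every probe set of Vim, Des, Nes, Gfap and Prph on each of the 7 arrays (horizontal axis), with blue points for MEF, orange for iHepSC and green for pHep, and a marker shape and grey line per probe set. The dotted line is the lowest of the 7 array medians, at 6.28. The 3 Vim probe sets lie between 12.83 and 14.64 on every array, Nes 1449022_at dips on both iHepSC arrays, and most Gfap and Prph probe sets lie under the dotted line.

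Vim was lower again on the pHep array. Its log2 difference from MEF was -1.41 ± 0.13 (SE) on 1450641_at, -1.23 ± 0.12 on 1456292_a_at and -0.80 ± 0.13 on 1438118_x_at, which leaves 37.7%, 42.6% and 57.3% of the MEF level. The order MEF, iHepSCs, pHep was the same on all 3 probe sets with no overlap, and iHepSCs stood above pHep by 0.89 ± 0.14 on 1450641_at and by 0.36 ± 0.14 on 1438118_x_at. The size of the step down to pHep therefore depended on the probe set, and the reading by the mean of all 3 gave a pHep minus MEF difference of -1.15 and an iHepSC minus pHep difference of 0.66. With a single pHep array the spread comes from MEF and iHepSCs alone, and pHep was taken to share it.

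The small Vim difference between iHepSCs and MEF nearly vanished with Gapdh as the reference, and stayed close to the deposited value under the other scalings. It was -0.49 with arrays centred on their median and -0.56 with quantile normalization again, against -0.52 as deposited. The 3 control probe sets of Gapdh, a glycolytic enzyme often used as a reference, averaged 14.31 ± 0.21 (SD, n = 4) in MEF, 13.97 at P3, 13.67 at P20 and 14.28 on pHep. With each array centred on them the Vim difference between iHepSCs and MEF was -0.03 ± 0.22 (SE), and on 1438118_x_at it turned to 0.05. On the deposited scale, 1441 probe sets had a mean level over the 7 arrays of at least 12, their median iHepSC minus MEF difference was -0.07, and 58.4% of them were lower in iHepSCs. The 3 Vim probe sets stood at the 17.6th to 21.7th percentile of this difference among them. The MEF levels lie close to the top of the scale, and whether such bright signals still follow the amount of RNA was not tested.

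Most of the 15 fibroblast markers stood much further below their MEF level in iHepSCs than Vim did. As a share of the mean MEF level, computed from the log2 differences, Vim stood at 72.8% to 76.1% at P3 and 64.5% to 71.5% at P20 over its 3 probe sets. All 15 fibroblast markers stood below the lowest Vim probe set on both iHepSC arrays, with medians of 0.899% at P3 and 0.838% at P20. On each of the iHepSC arrays 13 of the 15 stood under 10% and 8 under 1% of their MEF level. Of named markers, Col1a1, a chain of the main fibrillar collagen, was at 0.899% and 0.838%, and Col3a1, its type III counterpart, at 0.331% and 0.273%. Pdgfrb, the PDGF receptor of mesenchymal cells, was at 0.261% and 0.303%, and Thy1, a surface protein of fibroblasts, at 0.599% and 0.716%. Cdh11, the cadherin of mesenchymal cells, was at 0.212% and 0.192%. The nearest to Vim was Dcn, the matrix proteoglycan decorin, at 60.7% and 45.7%, followed by Fap, a fibroblast surface protease, at 12.6% and 14.1%. All 15 markers were lower in iHepSCs than in MEF past the test (limma, adjusted over all genes), with a median log2 difference of -6.85, against 0.01 over all genes and a background of 13.4% of genes called lower. Without either iHepSC replicate 13 were, and Dcn was not among them. In whole cultures, fewer cells of a type and less RNA per cell cannot be told apart, and a share near the dim end of the scale understates a fall.

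**Figure D2:**
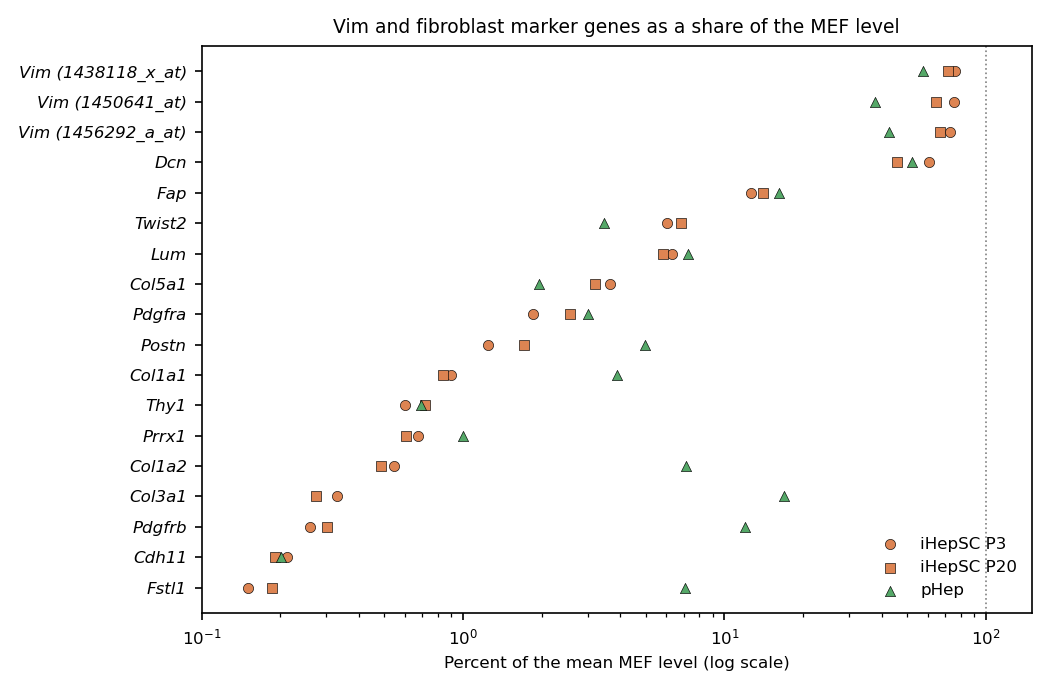
Share of the mean MEF level in percent (horizontal log axis) of the 3 Vim probe sets and the 15 fibroblast marker genes, with an orange circle for iHepSC P3, an orange square for iHepSC P20 and a green triangle for pHep, 1 array each. The dotted line marks the MEF level. Vim keeps 64.5% to 76.1% on the iHepSC arrays, while the markers' medians are 0.899% and 0.838%.

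The study also stained iHepSCs with an antibody to vimentin, as a check for remaining fibroblasts, and saw no stained cells. The arrays measure RNA, the vimentin protein was not analysed here, and the labels do not say whether the stained and the hybridised cells came from the same culture. Markers of other cells that make vimentin were read in the same arrays. The pan-leukocyte gene Ptprc was at 4.26 to 4.51 in iHepSCs and 5.26 to 6.96 in MEF, and the 10 Kupffer cell markers averaged 5.90 to 5.92. Of 8 liver endothelial markers, 3 rose in iHepSCs against MEF by limma and none fell (1 did at an unadjusted p under 0.05 and 1 without MEF replicate 1), beside 18.2% and 13.4% of all genes. The number that rose was 2 without iHepSC replicate 2 or MEF replicate 2 or 3. Cdh5, the cadherin of endothelial junctions, rose by 3.10 (SE 0.14, adjusted p = 1.93e-05) and Tek, the angiopoietin receptor, by 2.20 (SE 0.15, adjusted p = 0.000112), whereas Pecam1, which defines endothelium, was at 4.996 and 5.30 and did not pass the test. Their part in the Vim level was not tested. On the RNA level, the array signal of Vim in iHepSCs was that of a bright gene, at 13.48 to 14.20 over its probe sets and both passages.

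On the pHep array, 14 of the 15 fibroblast markers stood below the lowest Vim share, the exception being Dcn at 52.3%. Their median share was 4.96%, and 14 of 15 were lower than in MEF past the test, against 15.5% of all genes. Other liver cells that carry vimentin left signals of different size there. Of 10 Kupffer cell markers, 8 rose on pHep against MEF by limma and none fell (8 and 1 at an unadjusted p under 0.05, and 8 and 1 without MEF replicate 1), beside 14.8% and 15.5% of all genes, and 5 rose without either iHepSC replicate or without MEF replicate 2 or 4. Their mean log2 level was 9.33, against 6.41 to 7.28 in MEF and 5.90 to 5.92 in iHepSCs. The highest were Vsig4, a complement receptor of resident macrophages, at 11.57, and the complement gene C1qa at 11.08, whereas Clec4f, which defines Kupffer cells, was at 6.08. Of 5 leukocyte markers, 2 rose and 1 fell on pHep, calls that were all lost without either iHepSC replicate or without MEF replicate 2, 3 or 4, with the pan-leukocyte gene Ptprc at 7.23 and the lysozyme gene Lyz2 at 13.45. The 10 hepatic stellate cell markers had a mean of 6.53 on pHep, between those of MEF (6.74 to 7.55) and iHepSCs (5.68 to 5.82), and 1 rose and 2 fell against MEF, beside 14.8% and 15.5% of all genes. Without MEF replicate 1, 2 rose and 5 fell, and 1 fell without either iHepSC replicate or without MEF replicate 2 or 3. Their defining gene Lrat, which esterifies retinol, was dim at 4.19, and the highest were Ecm1 at 9.77 and Pdgfrb at 8.83. The 8 liver endothelial markers averaged 5.59 on pHep and 5.71 to 5.92 in MEF. The part of these cells in the levels of Vim, Nes and Prph on pHep was not tested.

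**Figure D3:**
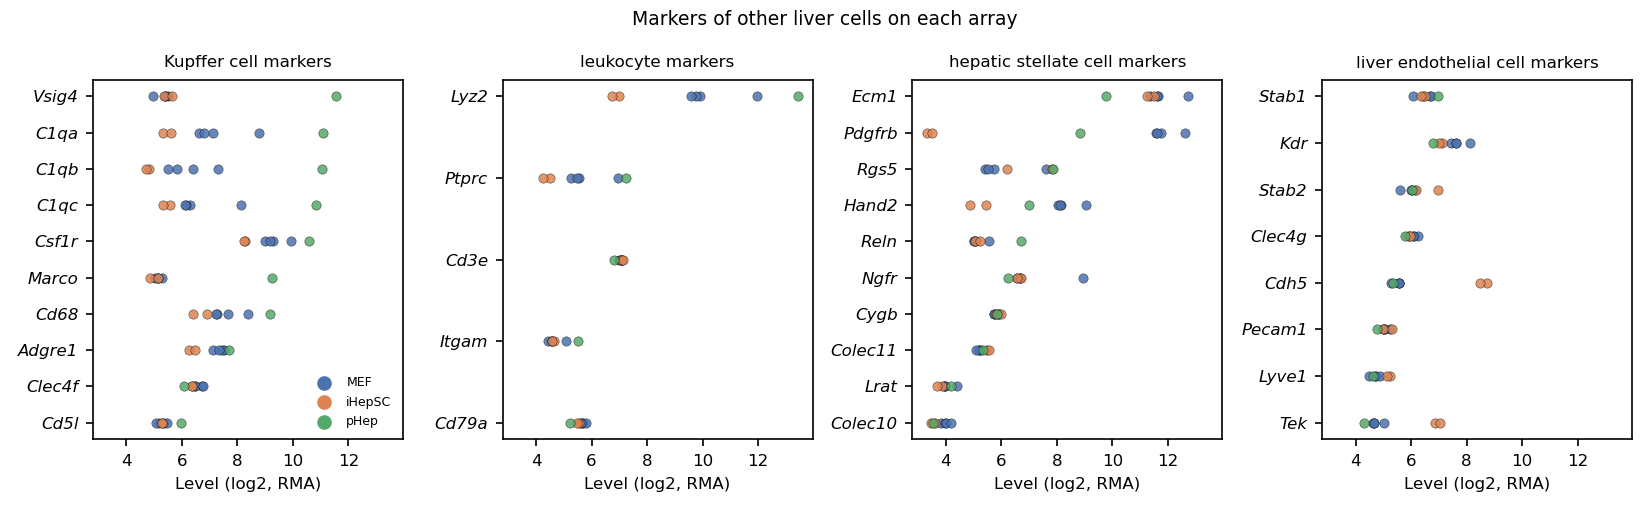
Log2 level (RMA, horizontal axis) of each measured marker gene (vertical axis) of Kupffer cells, leukocytes, hepatic stellate cells and liver endothelial cells, 1 point per array, with blue for MEF, orange for iHepSC and green for pHep. Most Kupffer cell markers lie highest on pHep, with Vsig4 at 11.57, while Lrat lies at 4.19 there.

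Des lay below all MEF arrays in iHepSCs on 1 of its 2 probe sets and on pHep on both. Its brighter probe set, 1426731_at, had log2 levels of 8.11, 8.42, 8.63 and 8.35 in MEF, 7.29 at P3, 7.40 at P20 and 7.42 on pHep. All of the iHepSC and pHep values lay below all MEF values and close to each other. The difference was -1.04 ± 0.16 (SE) between iHepSCs and MEF, or 48.8% of the MEF level, and -0.96 ± 0.20 between pHep and MEF. The second probe set, 1426732_at, lies under the array median and did not follow it. It was at 5.23, 5.44, 5.40 and 5.41 in MEF, 5.22 and 5.45 in iHepSCs and 4.87 on pHep, so that iHepSCs overlapped MEF (difference -0.03 ± 0.11) and pHep lay below both (-0.50 ± 0.15 against MEF). Both probe sets were designed from the same record, and their r over the 7 arrays was 0.522.

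Muscle cells, the usual source of desmin, were checked by their own markers. The 9 skeletal muscle markers had mean log2 levels of 5.64 to 6.04 in MEF, 5.45 to 5.57 in iHepSCs and 5.25 on pHep, with the defining factor Myod1 at 6.09 to 6.22 in MEF. Of these, 3 fell in iHepSCs (1 without either iHepSC replicate or without MEF replicate 2, 3 or 4), beside 13.4% of all genes, among them the cardiac actin Actc1 at -1.73 (SE 0.26, adjusted p = 0.00347) and the muscle cadherin Cdh15 at -0.56 (SE 0.14, adjusted p = 0.0240). The 8 smooth muscle and pericyte markers averaged 9.30 to 10.27 in MEF, 6.09 to 6.29 in iHepSCs and 7.65 on pHep. In iHepSCs 6 of them fell, beside 13.4% of all genes. Acta2, the smooth muscle actin that also marks activated fibroblasts, was at 14.68 to 14.83 in MEF, 7.54 to 7.64 in iHepSCs and 11.10 on pHep. Their part in the Des level was not tested.

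Nes had the largest difference of the 5 genes between iHepSCs and MEF, on 1 of its 3 probe sets. On 1449022_at its log2 levels were 9.73, 9.70, 9.72 and 9.65 in MEF, 7.70 at P3, 8.21 at P20 and 9.71 on pHep. The MEF arrays and pHep were alike, while both iHepSC arrays lay far below. iHepSCs were at 29.9% of the MEF level, with a log2 difference of -1.74 ± 0.15 (SE), and the pHep minus MEF difference was 0.01 ± 0.20. Where Vim was lowest on pHep, Nes was therefore lowest in iHepSCs, with an iHepSC minus pHep difference of -1.75 ± 0.21.

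The remaining Nes probe sets drew another pattern. On 1418289_at the levels were 8.68 on MEF replicate 1, 7.48, 7.62 and 7.41 on MEF replicates 2 to 4, 7.53 and 7.24 in iHepSCs and 8.92 on pHep. The iHepSC arrays here overlapped MEF (difference -0.41 ± 0.38), and without MEF replicate 1 the difference was -0.12. On 1453997_a_at the levels were 5.57 on MEF replicate 1, 4.69, 4.87 and 4.76 on the others, 4.57 and 4.48 in iHepSCs and 5.37 on pHep, all under the array median. Both iHepSC arrays lay below MEF, by -0.45 ± 0.26, or by -0.25 without MEF replicate 1. These 2 probe sets followed each other with r of 0.945 over the 7 arrays, against 0.449 and 0.615 with 1449022_at. What all 3 share is an iHepSC level below pHep, with differences of -0.84 to -1.75.

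MEF replicate 1, where both of these Nes probe sets stood highest among the MEF arrays, also stood apart over all probe sets, markers of several cell types included. Over the 9 neuron and glia markers, 2 were higher on it than on every other MEF array and 4 were lower. Fabp7, a fatty acid binding protein of radial glia, was at 11.47 there and at 7.17 to 7.62 on the other MEF arrays. Ngfr, the low-affinity neurotrophin receptor, is on the hepatic stellate cell list and was at 8.93 against 6.57 to 6.67. Of the neuron and glia markers that were lower there, S100b was at 5.79 against 6.46 to 6.50 and Elavl4 at 4.64 against 5.08 to 5.29. Fabp7, Ngfr, S100b and Elavl4 were chosen after their values were seen. All 8 smooth muscle and pericyte markers were highest on that replicate. So were 11 of 15 fibroblast, 8 of 10 hepatic stellate cell and 7 of 10 Kupffer cell markers, while 4, 1 and 0 were lowest there. The share of all genes that were highest or lowest on replicate 1 is not given here. These counts are therefore not read as a trait of any cell type. Sox10, the factor that defines neural crest glia, did not follow Fabp7, with 7.49 on replicate 1 and 7.51 to 7.56 on the others. The mean log2 level of the 9 was 6.94 to 7.42 in MEF, 5.62 to 5.80 in iHepSCs and 5.55 on pHep, and 3 of them fell in iHepSCs (5 without MEF replicate 1, 2 without any other array of MEF or iHepSCs), beside 13.4% of all genes. Proliferation genes went the other way on that replicate, with a mean of 8.66 over 5 dividing cell markers, against up to 11.58 in MEF, 9.41 to 10.29 in iHepSCs and 8.67 on pHep. The part of any of these in the Nes levels was not tested.

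Gfap was close to the array median or below it in every group. Its brightest probe set, 1426508_at, had log2 levels of 6.42, 6.59, 6.48 and 6.72 in MEF, 6.48 and 6.37 in iHepSCs and 6.46 on pHep, where all groups overlapped (iHepSC minus MEF -0.13 ± 0.12). On 1426509_s_at the levels were 5.26, 4.96, 4.59 and 4.73 in MEF, 4.94 and 4.90 in iHepSCs and 4.54 on pHep. On 1440142_s_at they were 4.27, 3.98, 3.90 and 3.86 in MEF, 4.63 at P3, 4.02 at P20 and 4.12 on pHep. Only P3 lay above MEF there, and without it the iHepSC minus MEF difference of 0.32 ± 0.21 was 0.02. The 3 probe sets gave r of -0.40 to 0.43 with each other, so their small movements were not shared.

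Prph was likewise near the array median or below it in every group. On 1449796_at, its brightest probe set, the log2 levels were 6.47, 6.42, 6.58 and 6.42 in MEF, 6.63 and 6.55 in iHepSCs and 6.22 on pHep, with a difference between iHepSCs and MEF of 0.12 ± 0.094 (SE). On 1422530_at the levels were 5.25, 5.19, 5.20 and 5.29 in MEF, 5.61 and 5.41 in iHepSCs and 5.99 on pHep. Both iHepSC arrays (0.28 ± 0.097) and pHep (0.76 ± 0.12, or 169% of the MEF level) lay above all MEF arrays there. On 1420256_x_at the order was turned, with 5.48, 5.57, 5.75 and 5.60 in MEF, 5.39 and 5.38 in iHepSCs and 5.17 on pHep. The r between these 2 probe sets was -0.88 over the 7 arrays. The last probe set, 1449797_x_at, was at 5.51 to 5.82 in MEF, 5.60 and 5.69 in iHepSCs and 5.45 on pHep. Of the 7 Gfap and Prph probe sets, 2 were above the array median on at least 1 array.

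Over all 15 probe sets, both iHepSC arrays lay below all MEF arrays on 7, where 21.1% of all probe sets did so, and above them on 1, where 23.2% did. The pHep array lay below all MEF arrays on 9 and above them on 2, against 42.6% and 28.4% of all probe sets. By limma over all probe sets with Benjamini-Hochberg adjustment, 5 of the 15 were lower in iHepSCs than in MEF (the 3 of Vim, Des 1426731_at and Nes 1449022_at) and none was higher (1 at an unadjusted p under 0.05), beside 9.76% and 13.0% of all probe sets. At pHep against MEF, 4 were lower (the 3 of Vim and Des 1426731_at) and 1 was higher (Prph 1422530_at), beside 12.3% and 15.4%. At iHepSCs against pHep, 2 were higher (Vim 1450641_at and 1456292_a_at) and 1 was lower (Nes 1449022_at), beside 6.48% and 9.13%. These counts use the contrasts the genes were known from, and nothing is read from them. The comparisons share the same MEF arrays.

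Between the passages most of the 15 probe sets differed by little, and 1 of Nes and 1 of Gfap by more, with 1 array each and no test. On their read probe sets, P20 minus P3 was -0.23 for Vim (1450641_at), 0.11 for Des (1426731_at) and 0.51 for Nes (1449022_at) on the log2 scale. Over all probe sets the median size of the P20 minus P3 difference was 0.12 and its 95th percentile 0.46. A larger difference than that of Vim was seen on 23.3% of all probe sets and a larger one than that of Nes on 3.77%. The other Nes probe sets went the other way, by -0.29 and -0.10. The largest of all 15 was Gfap 1440142_s_at at -0.61, which 2.26% of probe sets exceeded.

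The other genes of filament biology were taken from 4 lists, in which 36 of 38 genes were measured. By limma with Benjamini-Hochberg adjustment over all genes, 13 rose and 4 fell in iHepSCs against MEF, beside 18.2% and 13.4% of all genes. At pHep against MEF 8 rose and 5 fell, beside 14.8% and 15.5%. At iHepSCs against pHep 4 were higher and 2 lower, beside 9.26% and 7.89%. The number that fell in iHepSCs was 1 without either iHepSC replicate and 9 without MEF replicate 1, and the number higher in iHepSCs than on pHep was 2 without either iHepSC replicate and 18 without MEF replicate 1. On pHep the number that fell was 12 without MEF replicate 1, and the number lower in iHepSCs than on pHep was then 5.

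The simple epithelial keratins Krt7, Krt8, Krt18, Krt19, Krt20 and Krt23 rose together in iHepSCs, all 6 of 6, beside 18.2% of all genes. Their median log2 difference from MEF was 5.08. Krt8 and Krt18, the pair found in hepatocytes, rose by 5.96 (SE 0.57, adjusted p = 0.000527) and 4.998 (SE 0.35, adjusted p = 0.000142). Krt8 was at 6.92 on MEF replicate 1, 8.69 to 8.82 on the other MEF arrays and 14.2 to 14.3 in iHepSCs. Krt7 and Krt19, keratins of bile duct cells, rose by 6.15 (SE 0.64, adjusted p = 0.000761) and 5.16 (SE 0.55, adjusted p = 0.000851). Krt20 and Krt23 rose by 3.75 and 1.96. None of these 6 calls was lost under the alternatives tried. On pHep, 3 of 6 rose, beside 14.8% of all genes. These were Krt8 by 5.44, Krt18 by 5.16 and Krt7 by 3.85 (adjusted p = 0.00294, 0.000517 and 0.0168). The call of Krt7 was lost with MEF replicates 2 to 4 averaged, and those of Krt7 and Krt8 with the replicate number as a block. Krt19, Krt20 and Krt23 were higher in iHepSCs than on pHep, by 4.55 (SE 0.78, adjusted p = 0.0109), 2.90 (SE 0.38, adjusted p = 0.00356) and 2.21 (SE 0.19, adjusted p = 0.000688). The call of Krt19 was lost without either iHepSC replicate and with MEF replicates 2 to 4 averaged. Those of Krt19 and Krt23 were lost with the replicate number as a block. In iHepSCs the keratins thus stood high together with a bright Vim signal on the same 2 arrays.

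Of 11 other intermediate filament genes, 1 rose and 2 fell in iHepSCs, beside 18.2% and 13.4% of all genes. The other 8 did not pass the test, and the median over the list was -0.17. Without either iHepSC replicate 0 rose and 1 fell, without MEF replicate 1, 2 rose and 3 fell, and without MEF replicate 2, 3 or 4, 0 rose. Nefm, the middle neurofilament subunit, fell by 1.53 (SE 0.28, adjusted p = 0.00837) from 5.57 to 6.50 in MEF to 4.23 to 4.47. It lay near the array median or below it on every array. The call was lost without either iHepSC replicate, with Gapdh centring or with MEF replicates 2 to 4 averaged. Lmna, which encodes the lamins A and C of the nuclear envelope, fell by 1.08 (SE 0.11, adjusted p = 0.000755). Its call was lost with the mean of its probe sets, with Gapdh centring and with the replicate number as a block. Nefh, the heavy neurofilament subunit, was dim and rose by 0.50 (SE 0.13, adjusted p = 0.0311), and lost its call in 8 of 16 alternatives. Synm, which encodes synemin, a partner that joins vimentin and desmin filaments, was at 7.67, 5.93, 5.49 and 6.34 in MEF, 7.41 and 7.70 in iHepSCs and 4.73 on pHep, and did not pass the test (adjusted p = 0.179). Nefl and Ina, the light subunit and internexin, had differences of -0.26 and -0.17 and did not pass either. On pHep, Ina rose by 1.12 (SE 0.14, adjusted p = 0.00225), and Nefm, Lmna, Bfsp2 (a lens filament protein) and Sync (a muscle filament protein) fell, Sync losing its call in 8 of 16 alternatives.

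Of 9 linkers, the proteins that tie filaments to junctions, the nucleus and other cytoskeletal systems, 4 rose and 1 fell in iHepSCs, beside 18.2% and 13.4% of all genes. The number that rose was 7 without MEF replicate 1 and 2 without either iHepSC replicate or without MEF replicate 2 or 4, and the 1 that fell was called with all arrays and without MEF replicate 1, and in no other fit that left out an array. Dsp, which anchors keratin or desmin filaments at desmosomes, rose by 6.26 (SE 0.65, adjusted p = 0.000756), and Ppl, a linker of the same kind that binds keratins and vimentin, rose by 4.68 (SE 0.50, adjusted p = 0.000866). Jup, the junction protein plakoglobin, rose by 1.06 (SE 0.26, adjusted p = 0.0246) and lost its call in 8 of 16 alternatives. Syne3, which links filaments to the nuclear envelope through plectin, fell by 0.78 (SE 0.19, adjusted p = 0.0261) and lost its call in 9 of 17. On pHep, Dsp, Eppk1, Ppl and Dst rose, the last a call lost in 8 of 16 alternatives. Eppk1, an epithelial linker, rose by 5.80 (SE 0.49, adjusted p = 0.000429), and Syne3 fell by 1.41 (SE 0.25, adjusted p = 0.00851). Eppk1 was lower in iHepSCs than on pHep by 4.68 on the log2 scale (adjusted p = 0.00206).

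The last list holds 10 measured chaperones and enzymes that fold, phosphorylate or citrullinate vimentin and its relatives. Of these, 2 rose and 1 fell in iHepSCs, beside 18.2% and 13.4% of all genes. Without MEF replicate 1, 2 rose and 5 fell, without either iHepSC replicate 1 rose and 0 fell, and without MEF replicate 3 or 4, 1 rose. Padi2, a citrullinating enzyme, rose by 0.80 (SE 0.12, adjusted p = 0.00306), and Rock1, a kinase that phosphorylates vimentin in dividing cells, by 0.41 (SE 0.092, adjusted p = 0.0180). Akt1, another kinase that acts on vimentin, fell by 1.34 (SE 0.27, adjusted p = 0.0117). Rock1 and Akt1 each lost their calls in 6 of 17 alternatives. On pHep none of the 10 passed limma's test, while 14.8% of all genes rose and 15.5% fell. At an unadjusted p under 0.05, 2 of the 10 were lower there. Without MEF replicate 1, 4 fell and 1 rose there.

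**Figure D4:**
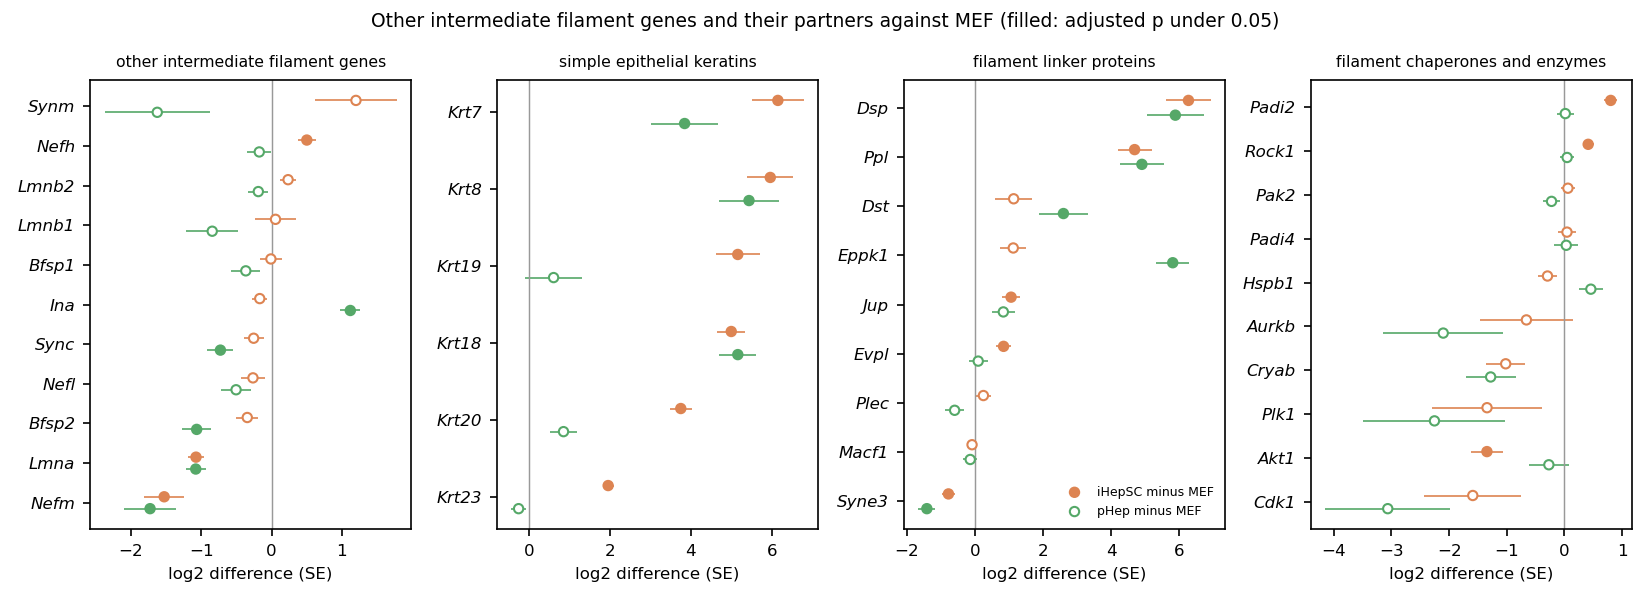
Log2 difference from MEF (horizontal axis, bars are the standard error of limma) of each gene of the 4 filament lists (vertical axis), in orange for iHepSC and green for pHep, filled where the adjusted p is under 0.05. The 6 keratins lie at 1.96 to 6.15 in iHepSCs, and Dsp and Ppl lie far to the right in both groups.

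The genes most like each member over the 7 arrays were taken by Pearson's r among 10699 or 10700 genes with a mean log2 level of at least 6 and an SD of at least 0.2. With 7 arrays in 3 groups, a high r mostly repeats the order of the groups, and it is given as a description. For Vim they were Pigf (0.998), Acot7 (0.997), Morrbid (0.995), Fam118a (0.995) and Cav1 (0.995). Cav1, which encodes the membrane protein caveolin, had the same order with wider steps, at a mean of 13.95 in MEF, 11.87 in iHepSCs and 7.996 on pHep. For Des they were Tmem126a (0.997), Sars (0.993) and Nab2 (0.992), and for Nes, read by 1449022_at, Sav1 (0.992), Tspyl4 (0.989) and Kpna4 (0.989). Tspyl4 was at 9.49 in MEF, 7.64 in iHepSCs and 9.62 on pHep. The values were lower for the dim genes, with Iqcf3 (0.918), Gen1 (0.914) and Hrc (0.895) for Gfap and Pde6g (0.973), Sh3d21 (0.963) and 1600014C23Rik (0.955) for Prph.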

How the data were processed

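Total RNA of 4 MEF, 2 iHepSC and 1 pHep samples was hybridised to Affymetrix Mouse 430 2.0 arrays. The values are log2 expression levels that the authors made by Robust Multiarray Analysis (RMA: background correction, quantile normalization, summary per probe set) and deposited. The RMA version is not given in the sources used here. The precision is limited by the number of arrays, which give signals and no depth. The wtHepSC arrays of an earlier study were not used here.

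Probe sets were named by the platform annotation table. The 64 control probe sets were left out, and for the gene table also the 932 with several symbols and 9160 with none, which left 18193 genes, each represented by its brightest probe set (mean over the 7 arrays), dim ones included. The group means were fitted in 1 linear model by limma 3.58.1 under R 4.3.3 (lmFit, then eBayes at its default prior), over 45037 probe sets or 18193 genes, with 4 residual degrees of freedom. P-values were adjusted by Benjamini-Hochberg over the whole table, with a threshold of 0.05. The model was tested on simulated data. Python 3.11.15 with pandas 2.3.3, numpy 2.4.6 and matplotlib 3.10.9 wrote the tables and figures.

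The 5 genes, the lists and the tests were chosen with earlier results of these data known. Named are the 5 genes with all their probe sets; of each filament list up to 3 largest rises and 3 largest falls past the test, the neurofilament family genes with Synm, and the simple keratins; of each marker list the 2 highest genes on the array it bears on and the defining gene; and the genes most alike over the arrays, 5 for Vim and 3 for each other member. Other named genes (Col1a1, Col3a1, Pdgfrb, Thy1, Cdh11, Dcn, Fap, Fabp7, Ngfr, S100b, Elavl4, Cdh5, Tek, Actc1, Cdh15, Serpina1b and genes on which 1 MEF array stood apart) were chosen after their values were seen. Some genes of the lists are not reported here. Alternatives were reading a gene by the mean over its probe sets, dropping suffixes _x_at and _s_at, quantile normalization again, centring on the median or Gapdh, leaving out each replicate, MEF replicates 2 to 4 averaged, the replicate number as a block, a filter at a log2 level of 6, trend and robust fitting, the methods' t-test and all probe sets tested.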

Additional observations from a re-analysis of the deposited data

Results flagged for a closer look

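On 12 of 51 probe sets or genes examined, MEF replicate 1 lay apart from MEF replicates 2 to 4 by more than Dixon's 95% critical value for 4 arrays, as the gap to its nearest neighbour over the whole range. Chance gives such a gap in about 1 in 20 groups. The share of all probe sets with such a gap is not given here. Replicate 1 also stood apart over all probe sets, with r of 0.960 to 0.961 to the other MEF arrays. The count is therefore not read as a trait of these genes. Of the 15 probe sets of Vim, Des, Nes, Gfap and Prph, 1 was among the 12: Nes 1418289_at, with 8.68 on replicate 1 against 7.41 to 7.62 and a ratio of 0.838. Higher on replicate 1 were Dst (11.12 against 9.30 to 9.37, ratio 0.963), Macf1 (10.59 against 10.14 to 10.17, ratio 0.946) and Cryab (13.56 against 12.41 to 12.54, ratio 0.886). Lower on replicate 1 were the keratins Krt7 (5.77 against 7.82 to 7.86, ratio 0.979), Krt8 (6.92 against 8.69 to 8.82, ratio 0.93) and Krt19 (7.78 against 9.39 to 9.67, ratio 0.852), the linker Evpl (5.81 against 6.42 to 6.51, ratio 0.872) and the lamin gene Lmnb1 (9.16 against 9.92 to 10.04, ratio 0.858). The mitotic kinases that phosphorylate vimentin were lower there too: Aurkb at 6.86 against 9.33 to 9.45 (ratio 0.954), Cdk1 at 9.30 against 11.90 to 11.99 (ratio 0.965) and Plk1 at 7.12 against 10.02 to 10.23 (ratio 0.932).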

How the results depend on the processing

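Settings were changed 1 at a time. For Vim, the iHepSC minus MEF difference kept its sign in all 14 settings, from -0.63 to -0.03 on the log2 scale, and leaving out 1 array gave -0.63 to -0.40. The smallest, -0.0257, came with arrays centred on Gapdh, where Vim 1438118_x_at turned to 0.0506. The same centring gave 1.35 for Vim in iHepSCs against pHep, and the mean of all Vim probe sets gave 0.66 there and -1.15 for pHep against MEF. The iHepSC minus MEF difference stayed negative in all 14 settings for Des (-1.13 to -0.54) and Nes (-1.998 to -0.87), the smaller values belonging to the mean of all probe sets, and that of Gfap ranged from -0.18 to 0.36.

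Counts over the 36 filament genes moved more. Leaving out 1 array gave 1 to 9 genes that fell in iHepSCs (4 with all arrays), 9 to 17 that rose (13), 7 to 11 that rose on pHep (8), 4 to 12 that fell on pHep (5), and 2 to 18 higher and 2 to 5 lower in iHepSCs than on pHep (4 and 2). With Gapdh centring 0 fell in iHepSCs and 3 on pHep, and 8 were higher and 1 lower in iHepSCs than on pHep. With MEF replicates 2 to 4 averaged, 1 fell in iHepSCs, 1 fell on pHep and 2 were higher in iHepSCs than on pHep. By the methods' t-test at p under 0.05, 13 rose and 4 fell in iHepSCs, and 10 and 2 after Benjamini-Hochberg adjustment. The cause of these moves was not tested, other than that leaving out or averaging arrays leaves fewer of them.

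With the replicate number as a block (replicate block), 8 rose and 1 fell in iHepSCs, 2 rose and 0 fell on pHep, and 1 was higher and 0 lower in iHepSCs than on pHep. The numbers do not pair the samples, since iHepSC replicates are passages, and the deviations of same-numbered MEF and iHepSC arrays correlated at -0.22 over 45037 probe sets. The Vim difference of iHepSCs against MEF kept its sign in this fit.

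Arrays give a signal over background and no depth. Most Gfap and Prph probe sets lie under the array median, where a difference is read small, and the Vim probe sets lie near the upper end. Each passage and pHep were measured on 1 array.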
